A study of Mus musculus with 9 samples.

Results

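The distal-less genes *Dlx1* to *Dlx6*, the muscle-segment homeobox genes *Msx1* and *Msx2* and the H6 family genes *Hmx2* and *Hmx3* were examined in the otic vesicle (OV), the epithelial sac that gives rise to the inner ear, and in non-otic tissue of the mouse embryo. All probes whose gene symbol on the array is one of these 10 names were taken, whatever their values. There were 11 such probes among the 25697 probes and 18120 symbols of the array. They stand for 9 of the 10 genes, with 2 probes each for *Dlx5* and *Hmx3*, and *Dlx6* was not analysed here.

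RNA came from 3 tissue groups of E10.5 embryos of the outbred CD-1 strain, and the labels give no mutant allele, transgene or treatment for any group. The groups were pooled OVs, periotic tissue, which joins the mesenchyme around the vesicle with the hindbrain, and whole embryos from which the greater otic region had been removed (embryo-minus-otic). Each group had 3 pools, and each pool was hybridized to 1 array of 1 colour. The pools came from several litters, but the sources used here do not tie a pool to a litter, so p-values measure only the spread between these pools.

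Both non-otic groups are mixtures, and periotic tissue averages mesenchyme with neural tube. Fewer cells of a type and less RNA per cell cannot be told apart in such bulk samples. Values are log2 intensities after quantile normalization, and group means are given ± SD over 3 arrays. On each array, a detection p-value under 0.01, which ranks a probe against negative control beads, marks the probe as above background. Between 43.9% and 47.3% of all probes passed on each array, and the lowest value among them was 6.14 to 6.24 depending on the array. The *q*-value is limma's p adjusted by Benjamini-Hochberg over all 25697 probes, and a probe is called at *q* under 0.05.

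Dlx, Msx and Hmx proteins are transcription factors that bind DNA through a homeodomain. Vertebrate Dlx genes lie in linked pairs, *Dlx1* with *Dlx2*, *Dlx3* with *Dlx4* and *Dlx5* with *Dlx6*, and they pattern the pharyngeal arches, the ventral forebrain, the limb buds and the dorsal otocyst. Msx proteins act mostly as repressors downstream of BMP signals in craniofacial mesenchyme, limb and dorsal neural tube, and *Hmx2* and *Hmx3* are known from mouse mutants as genes of the vestibular part of the inner ear.

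Of the 11 probes, 6 were above background on at least 1 array. These were the probes of *Dlx1*, *Dlx2*, *Dlx3*, *Msx1* and *Msx2* and the *Dlx5* probe for transcript variant 1. All 6 were above background on every OV array, 5 were on every embryo-minus-otic array and 3 were on every periotic tissue array. Against periotic tissue, 4 of the 11 probes were higher in OV, those of *Dlx1*, *Dlx2*, *Dlx3* and *Dlx5*, where 5.07% of all probes were called higher. Both Msx probes were lower in OV, where 5.15% of all probes were called lower. Against embryo-minus-otic tissue, *Dlx3* and *Dlx5* were higher in OV (2 of 11, with 5.89% of all probes called higher) and *Msx1* was lower (1 of 11, with 5.51% called lower). Periotic tissue was above embryo-minus-otic tissue for *Msx2* (1 of 11, with 2.86% of all probes called higher) and below it for *Dlx1*, *Dlx2* and *Dlx3* (3 of 11, with 2.95% called lower). In either direction, 6 of 11 probes were called between OV and periotic tissue (10.2% of all probes), 3 between OV and embryo-minus-otic tissue (11.4%) and 4 between the non-otic groups (5.81%). The 3 comparisons share arrays and are not independent of each other. The OV arrays lay above all periotic tissue arrays for 4 of the 11 probes (12.3% of all probes did so) and below them for 2 (12.8%). They lay above all embryo-minus-otic arrays for 3, *Dlx3*, *Dlx5* variant 1 and the dimmer *Hmx3* probe (13.1%), and below them for 2, *Msx1* and *Dlx5* variant 2 (11.8%). Periotic tissue lay above embryo-minus-otic tissue without overlap for *Msx2* alone, 1 of 11 (10.6%), and below it for 5, the probes of *Dlx1*, *Dlx2* and *Dlx3* and both of *Dlx5* (9.19%). The *Hmx3* probe and the second *Dlx5* probe in these counts were not above background.

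**Figure D1:**
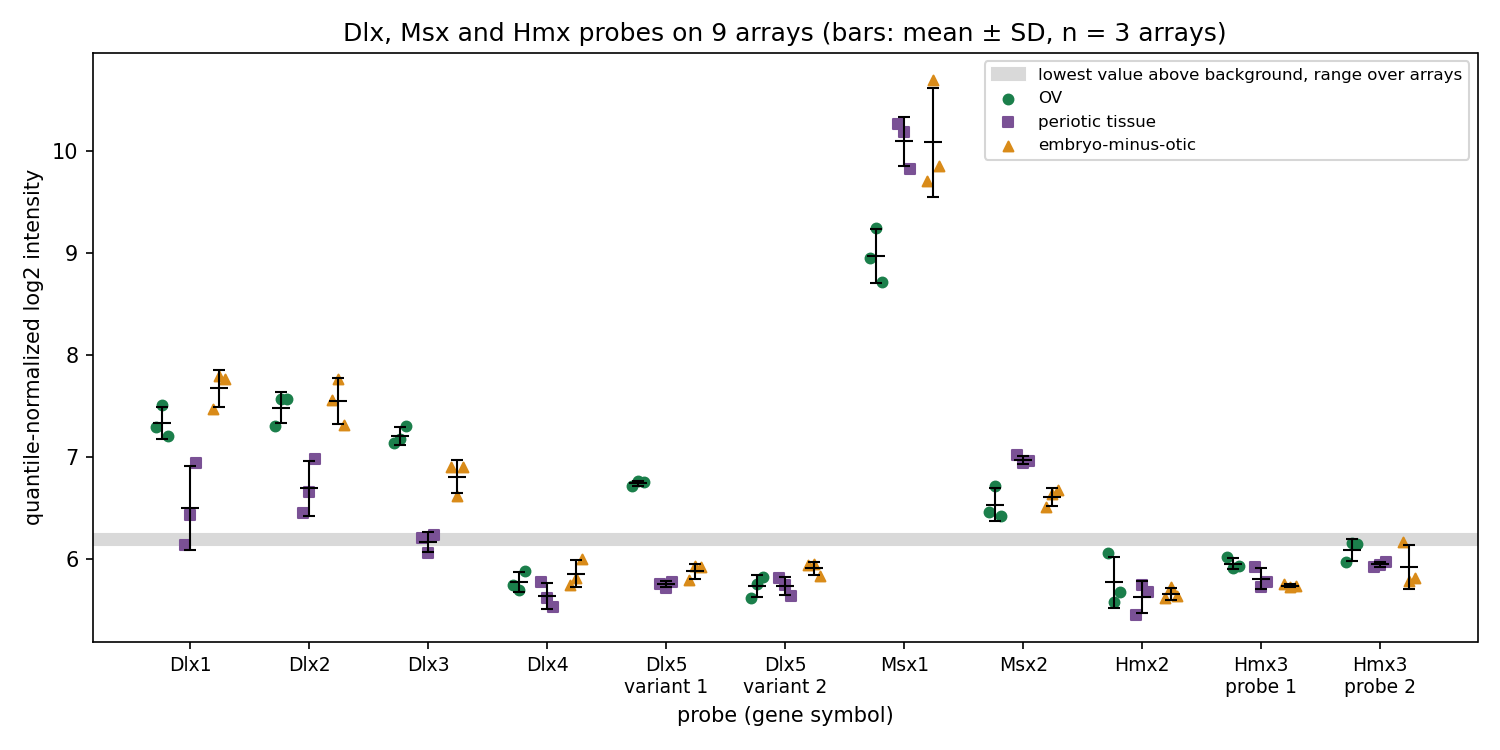
Quantile-normalized log2 intensity of each Dlx, Msx and Hmx probe on the 9 arrays, with 1 point per array, the tissue group by colour and bars for the mean ± SD (n = 3 arrays). The OV points of *Dlx3* and the brighter *Dlx5* probe lie above all non-otic points, and the OV points of *Msx1*, between 8.71 and 9.24, lie below them.

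*Dlx5*, whose loss in mice disturbs the semicircular canals, set OV apart from both other groups. The probe for transcript variant 1, on chromosome 6, read 6.71, 6.76 and 6.75 on the OV arrays. It read 5.76, 5.72 and 5.77 on the periotic tissue arrays and 5.79, 5.93 and 5.92 on the embryo-minus-otic arrays. Every OV array was thus above every non-otic array, and the probe was above background on the 3 OV arrays and on none of the 6 others. The group means were 6.74 ± 0.026, 5.75 ± 0.029 and 5.88 ± 0.076. Because both non-otic groups gave only a bound, the OV level was at least 1.47-fold that of periotic tissue and at least 1.44-fold that of embryo-minus-otic tissue. The tests were of the fitted log2 differences, not of these bounds. The fitted values were 0.99 against periotic tissue (limma *q* = 3.73e-07) and 0.86 against embryo-minus-otic tissue (limma *q* = 1.93e-06). The OV call against embryo-minus-otic tissue was lost when *Dlx5* was tested against a 1.5-fold change rather than against no change (limma *q* = 0.0918).

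The other *Dlx5* probe, for transcript variant 2, did not share this pattern. It was above background on no array, with OV values of 5.62, 5.75 and 5.83. It thus gave no measured difference between the groups, and the *Dlx5* call rests on 1 of the 2 probes. The *Dlx4* probe, for the gene linked to *Dlx3* in the genome, was above background on no array either.

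*Dlx3*, which is active in surface epithelium, placode and placenta, had a separate level in each group. Its probe, on chromosome 11, read 7.13, 7.17 and 7.30 on the OV arrays, 6.21, 6.06 and 6.24 on those of periotic tissue, and 6.90, 6.62 and 6.90 on those of embryo-minus-otic tissue. No 2 groups overlapped, with OV highest and periotic tissue lowest, and only 1 of the 3 periotic tissue arrays was above background. OV was 2.05-fold above periotic tissue (log2 difference 1.04, SE 0.099, limma *q* = 2.08e-06), a value that became 3.34-fold after neqc. OV was 1.32-fold above embryo-minus-otic tissue (log2 difference 0.40, SE 0.099, limma *q* = 0.0146), and periotic tissue was 1.56-fold below it (limma *q* = 6.57e-04). The OV call for *Dlx3* against embryo-minus-otic tissue depended on single arrays. It was lost without OV replicate 3 (limma *q* = 0.0730, log2 difference 0.35) and without embryo-minus-otic replicate 2 (limma *q* = 0.0688, log2 difference 0.30), and also without normalization between arrays (limma *q* = 0.562).

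*Dlx1* and *Dlx2*, neighbours on chromosome 2 that act together in forebrain interneurons and in the first pharyngeal arch, moved alike over the 9 arrays. As these probes follow each other, the 250 bases before each annotated transcript start are shown, from the RefSeq table on build GRCm38.p6. *Dlx1* lies on the plus strand at chr2:71529195-71529444 and *Dlx2* on the minus strand at chr2:71546755-71547004, and both windows are printed 5′ to 3′ on the strand of the gene. Capitals mark the motifs searched on both strands, namely TAATTA and TAATTG, which are core sequences of homeodomain binding, GGCGCC, and CCAAT. On the strand printed, the reverse complement of the last reads ATTGG.
Dlx1: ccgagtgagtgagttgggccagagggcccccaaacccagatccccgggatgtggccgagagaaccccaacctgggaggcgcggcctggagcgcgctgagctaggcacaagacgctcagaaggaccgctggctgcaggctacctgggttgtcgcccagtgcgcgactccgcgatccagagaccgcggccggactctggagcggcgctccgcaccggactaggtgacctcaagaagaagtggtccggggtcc
Dlx2: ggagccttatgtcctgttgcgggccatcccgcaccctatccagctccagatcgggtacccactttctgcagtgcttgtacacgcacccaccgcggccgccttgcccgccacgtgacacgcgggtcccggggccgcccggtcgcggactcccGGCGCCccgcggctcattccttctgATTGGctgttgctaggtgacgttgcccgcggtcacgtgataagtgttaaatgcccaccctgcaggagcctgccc
The *Dlx1* window held none of the 4 motifs. The *Dlx2* window held ATTGG starting 74 bases and GGCGCC starting 99 bases before the transcript start. CCAAT in either orientation occurs in 33.8% of all 32851 windows of this length in the table and GGCGCC in 9.59%, so these matches describe the letters only. The GC content was 68% for *Dlx1* and 66.4% for *Dlx2*, beside a median of 52.4% over all windows.

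The *Dlx1* probe read 7.29, 7.51 and 7.20 on the OV arrays, 6.13, 6.43 and 6.94 on those of periotic tissue, and 7.46, 7.80 and 7.76 on those of embryo-minus-otic tissue. OV lay above periotic tissue with no overlap, and the ranges of OV and embryo-minus-otic tissue overlapped. The periotic tissue arrays were the most spread, with a mean of 6.50 ± 0.41, and 2 of these 3 arrays were above background. OV exceeded periotic tissue 1.78-fold (log2 difference 0.83, SE 0.16, limma *q* = 0.00237), and embryo-minus-otic tissue exceeded periotic tissue 2.26-fold (limma *q* = 2.12e-04). Between OV and embryo-minus-otic tissue the *Dlx1* difference of -0.34 did not pass the test (limma *q* = 0.247), with a 95% interval of -0.68 to 0.0075. The OV call for *Dlx1* against periotic tissue was lost when arrays were scaled to a common median (limma *q* = 0.0772).

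The *Dlx2* probe was above background on all 9 arrays. It read 7.30, 7.57 and 7.57 on the OV arrays, 6.44, 6.65 and 6.97 on those of periotic tissue, and 7.56, 7.76 and 7.31 on those of embryo-minus-otic tissue. As for *Dlx1*, periotic tissue lay below the other groups without overlap, and OV overlapped with embryo-minus-otic tissue. OV was 1.73-fold above periotic tissue (log2 difference 0.79, SE 0.14, limma *q* = 9.77e-04), and embryo-minus-otic tissue was 1.81-fold above it (limma *q* = 9.64e-04). The *Dlx2* difference between OV and embryo-minus-otic tissue was -0.06, with a 95% interval of -0.36 to 0.23 (limma *q* = 0.872). With arrays scaled to a common median, the *Dlx2* call between periotic and embryo-minus-otic tissue was lost (limma *q* = 0.0724).

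Likeness of pattern was measured as the Euclidean distance between array profiles, each centred on its own mean over the 9 arrays. Among the 15 pairs of the 6 probes above background, *Dlx1* and *Dlx2* were the closest at 0.674, followed by *Dlx3* and *Dlx5* at 0.768. The largest distance was that of *Dlx5* and *Msx1*, 3.02. *Msx1* and *Msx2* were 1.52 apart. These distances describe 9 arrays that fall into 3 tissue groups, and all probes share those arrays. Outside the families, the probes closest to *Dlx2* were 2 probes of 5730449L18Rik (0.464 and 0.472) and 1 of *Sema3a*, a secreted axon guidance protein (0.474).

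**Figure D2:**
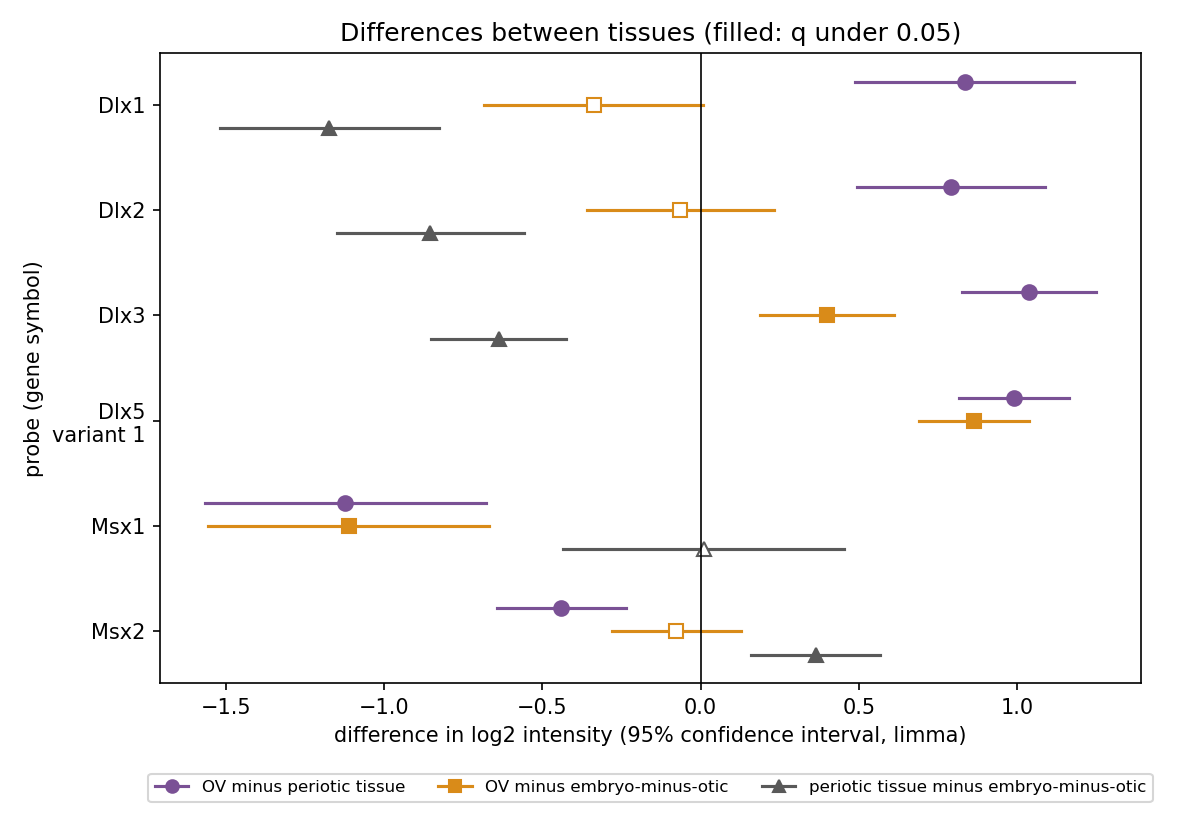
Difference in log2 intensity for the 6 Dlx and Msx probes above background on at least 1 array, in the 3 tissue comparisons. Lines are 95% confidence intervals from limma, and filled points have *q* under 0.05. *Dlx5* is not drawn for periotic against embryo-minus-otic tissue, as it was above background in neither group. The Dlx and Msx probes called between OV and periotic tissue lie on opposite sides of 0, with *Msx1* at -1.12 and *Dlx3* at 1.04.

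Both Msx genes were lower in OV than in periotic tissue, where 4 Dlx probes were higher. Their promoter windows are shown beside those of *Dlx1* and *Dlx2*, as the RefSeq table used has no window for *Dlx3* or *Dlx5*. Whether promoter sequence bears on the difference in sign was not tested. *Msx1* lies on the minus strand at chr5:37824586-37824835 and *Msx2* on the minus strand at chr13:53472781-53473030, and both are printed 5′ to 3′ with the same motifs in capitals.
Msx1: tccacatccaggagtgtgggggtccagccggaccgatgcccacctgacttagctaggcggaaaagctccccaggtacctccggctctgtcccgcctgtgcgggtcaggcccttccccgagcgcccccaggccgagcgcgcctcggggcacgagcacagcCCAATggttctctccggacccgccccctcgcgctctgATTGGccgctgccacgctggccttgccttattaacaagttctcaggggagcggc
Msx2: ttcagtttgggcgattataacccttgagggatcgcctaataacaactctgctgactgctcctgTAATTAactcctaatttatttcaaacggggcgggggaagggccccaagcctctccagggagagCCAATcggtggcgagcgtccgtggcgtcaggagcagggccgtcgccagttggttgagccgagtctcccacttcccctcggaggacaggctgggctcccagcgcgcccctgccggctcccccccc
The *Msx1* window held the CCAAT box in each orientation, ATTGG starting 54 bases and CCAAT starting 91 bases before the transcript start. The *Msx2* window held CCAAT at 124 bases and TAATTA at 187 bases before the start, and TAATTA occurs in 4.84% of all windows. TAATTG, found in 7.17% of all windows, was in none of the 7 windows that the table holds for 6 of the genes, and CCAAT was in 4 of the 7.

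*Msx1*, a repressor of differentiation in neural crest and dental mesenchyme, was above background on all 9 arrays. It read 8.95, 9.24 and 8.71 on the OV arrays, 10.26, 10.19 and 9.82 on those of periotic tissue, and 9.70, 10.69 and 9.85 on those of embryo-minus-otic tissue. All OV arrays were below all non-otic arrays, and the non-otic groups overlapped. OV was 2.18-fold below periotic tissue (log2 difference -1.12, SE 0.21, limma *q* = 0.00158) and 2.16-fold below embryo-minus-otic tissue (log2 difference -1.11, SE 0.21, limma *q* = 0.00174). The non-otic groups differed by 0.0099 on the log2 scale, with a 95% interval of -0.43 to 0.45 (limma *q* = 0.990). The embryo-minus-otic arrays were the most spread for *Msx1* (10.08 ± 0.54), with replicate 2 the highest. Both OV calls for *Msx1* were lost with arrays scaled to a common median (limma *q* = 0.0545 against periotic tissue and 0.125 against embryo-minus-otic tissue). Its closest probes outside the families were those of *Gm691* (0.681), *Zic4*, a zinc finger factor of dorsal neural tissue (0.682), and *Rgl1* (0.682).

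*Msx2*, which shares much of its activity with *Msx1* in skull and tooth, was highest in periotic tissue. It read 6.45, 6.71 and 6.42 on the OV arrays, 7.01, 6.94 and 6.95 on those of periotic tissue, and 6.51, 6.64 and 6.67 on those of embryo-minus-otic tissue. The periotic tissue arrays were above all others, and the embryo-minus-otic range lay inside the OV range. OV was 1.36-fold below periotic tissue (log2 difference -0.44, SE 0.095, limma *q* = 0.0056), a call that was lost without normalization between arrays (limma *q* = 0.141). OV and embryo-minus-otic tissue differed by -0.08, with a 95% interval of -0.28 to 0.13 (limma *q* = 0.742).

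Periotic tissue was 1.29-fold above embryo-minus-otic tissue for *Msx2* (log2 difference 0.36, SE 0.095, limma *q* = 0.0351). This call for *Msx2* was lost when any 1 of the 6 non-otic arrays was left out, with limma *q*-values of 0.132, 0.0862 and 0.0742 without periotic tissue replicates 1, 2 and 3 and of 0.126, 0.0584 and 0.0504 without embryo-minus-otic replicates 1, 2 and 3. The log2 difference stayed between 0.32 and 0.40 in these fits.

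*Hmx2* and *Hmx3* gave no level above background in any tissue. The *Hmx2* probe, on chromosome 7, read 6.05, 5.58 and 5.67 in OV. The 2 *Hmx3* probes, on the same chromosome, read 6.01, 5.91 and 5.92 and, for the brighter one, 5.96, 6.16 and 6.14 in OV. The non-otic arrays ran from 5.45 to 5.75 for *Hmx2* and from 5.79 to 6.16 for the brighter *Hmx3* probe, and both ranges overlapped with OV. For the dimmer *Hmx3* probe, OV overlapped with periotic tissue (5.73 to 5.92) but lay above all embryo-minus-otic arrays (5.72 to 5.75), all below background. Together with those of *Dlx4* and the second *Dlx5* probe, they gave 45 array values between 5.45 and 6.16, of which 4 had a detection p-value under 0.05 and the lowest was 0.0125. At that looser threshold 8 of the 11 probes were above background on at least 1 array, *Hmx2* on 1 OV array and the brighter *Hmx3* probe on 2 OV arrays and 1 embryo-minus-otic array. None of the 5 probes was called in any comparison. Such values bound the signal of these probes and say nothing on transcripts that the probes do not read. The probes closest in pattern to *Hmx3* (*LOC216963*, *Capn1* and *Ube2c*, at 0.142 to 0.161) follow values that are not above background.

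**Figure D3:**
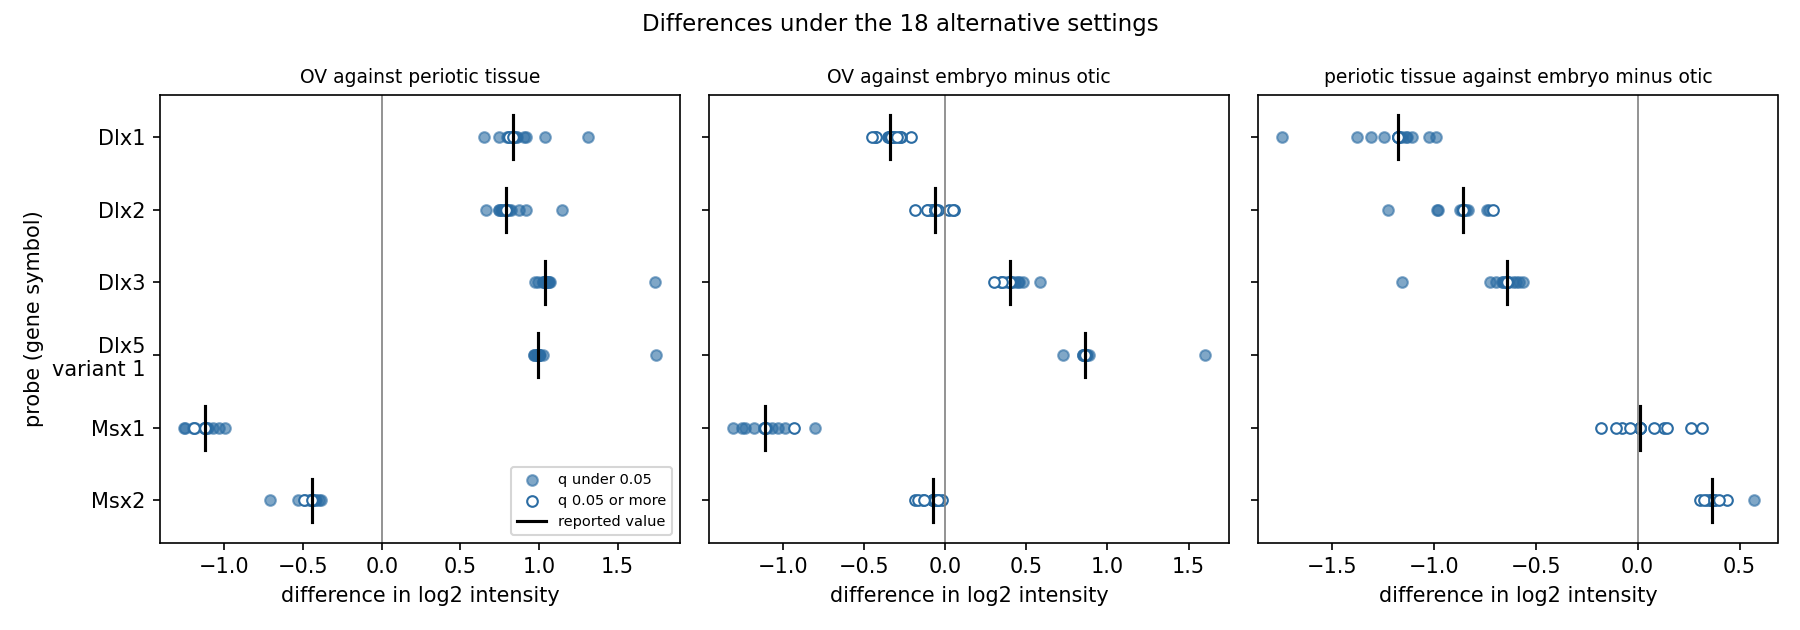
Difference in log2 intensity of the 6 probes above background (1 panel per tissue comparison), with the reported value and the values under 18 alternative settings. *Dlx5* is not drawn for periotic against embryo-minus-otic tissue, as it was above background in neither group. The *Dlx3* and *Dlx5* differences between OV and periotic tissue stay right of 0, and those of *Dlx2* between OV and embryo-minus-otic tissue fall on both sides of 0.

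Marker lists of OV and of other cell types also differed between the groups, though not all in the direction of the Dlx or Msx probes. The 13 probes for 8 of 9 listed OV genes, with *Oc90*, *Fbxo2*, *Lmx1a* and *Gata3* the most changed, summed to between 7366 and 8068 normalized intensity units in OV, 1130 to 1259 in periotic tissue and 1296 to 1363 in embryo-minus-otic tissue. Of these probes 11 were higher in OV in each comparison, and 1 probe each of *Pax2* and *Pax8* was above background on no OV array. On no periotic tissue array were 9 of the 13 above background, and on no embryo-minus-otic array 7. The non-otic sums thus hold much background signal and are not levels of the OV genes. The 5 epithelial probes (5 of 6 genes, among them *Cldn6* and *Esrp1*) were all higher in OV, with sums of 10401 to 11052 in OV, 776 to 1119 in periotic tissue and 1791 to 2547 in embryo-minus-otic tissue. All 5 were lower in periotic than in embryo-minus-otic tissue, the direction that *Dlx1*, *Dlx2* and *Dlx3* also took. The part of the epithelial genes in the Dlx differences was not tested. The OV and epithelial lists were chosen with earlier results of these data known. That their genes are higher in OV is therefore a description only.

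Surface ectoderm, in which *Dlx3* and *Dlx5* are also active, was read by 11 probes for 7 genes. Their sum was lowest in OV (739 to 840), between in periotic tissue (1078 to 1371) and highest in embryo-minus-otic tissue (1699 to 1836). In OV 5 of them were lower than in periotic tissue and 7 lower than in embryo-minus-otic tissue. On no OV array were 6 above background, among them probes of *Trp63* and *Krt14*. Also among these 6 was a probe each of *Krt5*, *Perp* and *Tfap2a* that was above background on no array of any group. The part of surface ectoderm in the *Dlx3* and *Dlx5* differences was not tested.

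Mesenchyme and neural crest, where Msx genes are active, was read by 13 probes for 9 of 10 genes. These summed to 1797 to 2023 in OV, 1892 to 2231 in periotic tissue and 4188 to 4986 in embryo-minus-otic tissue, and OV and periotic tissue overlapped. In OV 1 of them, *Col1a1*, was lower than in periotic tissue and 12 were lower than in embryo-minus-otic tissue, while 11 were lower in periotic than in embryo-minus-otic tissue. Probes of *Col1a1*, *Prrx1* and *Tcf15* were above background on no OV array, and this *Prrx1* probe on no array of the other groups either. Hindbrain and neural tube markers (11 probes for 10 genes) summed to 939 to 1066 in OV, 5950 to 6997 in periotic tissue and 2137 to 2467 in embryo-minus-otic tissue. Of these, 8 were lower in OV than in periotic tissue and 7 were above background on no OV array, *Dbx1* and *Nkx6-1* included. Among those 7, the probes of *Pax6* and *Sox1* were above background on no array of any group. *Msx2*, like the hindbrain list, was highest in periotic tissue, and the *Msx1* means of the non-otic groups were 10.09 and 10.08. The part of these tissues in the Msx differences was not tested.

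**Figure D4:**
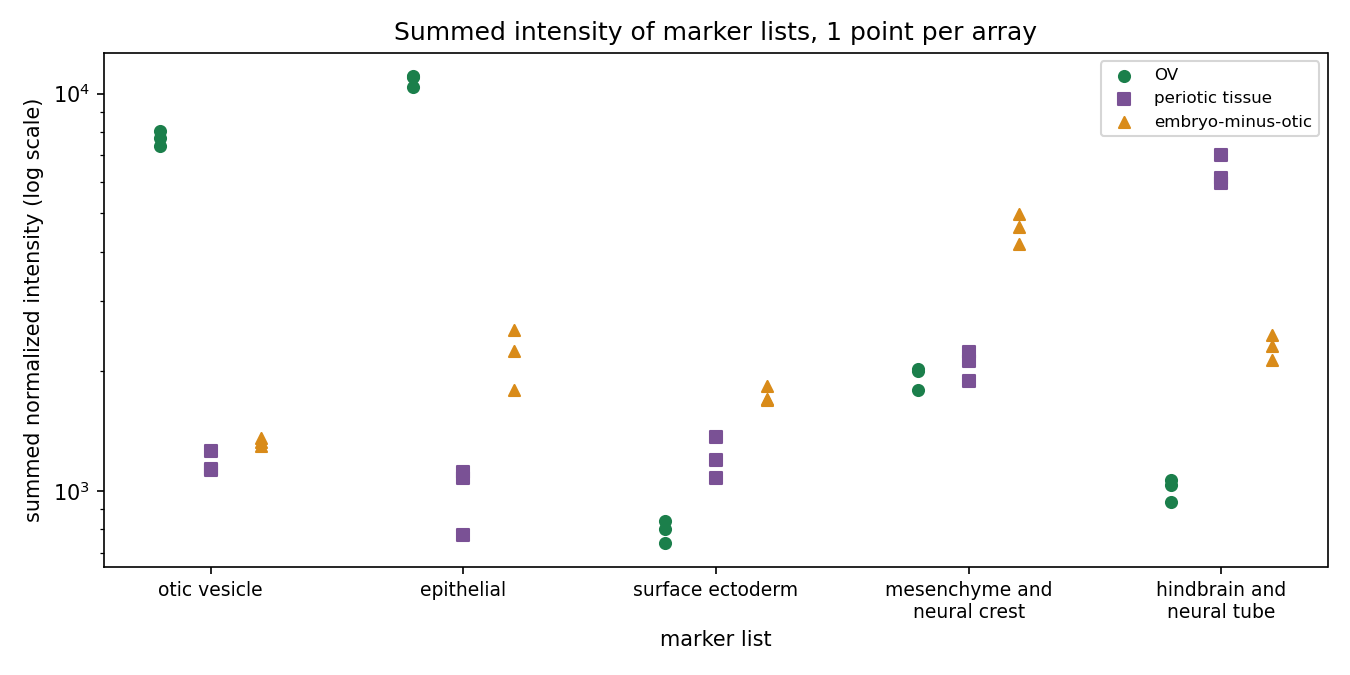
Summed normalized intensity (log scale) of the marker lists for OV, epithelium, surface ectoderm, mesenchyme with neural crest, and hindbrain with neural tube, with 1 point per array and the tissue group by colour. OV arrays are highest for the OV and epithelial lists, and periotic tissue arrays, at 5950 to 6997, are highest for the hindbrain list.

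The genes that work with the members were followed through lists. In the BMP pathway (33 probes for 22 genes, 24 of them above background on some array), 5 probes were higher and 4 lower in OV against periotic tissue, and the same counts held against embryo-minus-otic tissue. The median log2 difference of the list was 0.04 in both, beside 0.00 over all probes. The ligand *Bmp7* was 3.59-fold above its periotic tissue level in OV (limma *q* = 1.61e-08) and the ligand *Bmp4* 2.64-fold higher (limma *q* = 1.16e-07). The receptor *Bmpr1b* was 1.87-fold higher, and *Id4*, a target of BMP signals, was 1.66-fold lower. *Bmp6*, also a ligand and named after its values were seen, was among the 4 lower probes, with the BMP antagonists *Nog* and *Chrd*. Between periotic and embryo-minus-otic tissue, 2 BMP pathway probes were higher and 5 lower.

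Among other regional factors of the otocyst (26 probes for 18 of 19 genes), 20 probes were higher and 1 lower in OV against periotic tissue, with a median of 1.29, and 19 were higher and 1 lower against embryo-minus-otic tissue, with a median of 0.93. In OV *Lmx1a*, a factor of the dorsal otocyst, was 15.5-fold and *Fgf10*, a growth factor of the prosensory region, 4.78-fold above embryo-minus-otic tissue. The T-box factor *Tbx2* was at least 7.35-fold above periotic tissue. *Otx1*, a factor of the ventral and lateral otocyst, was 11.6-fold above periotic tissue, while its difference from embryo-minus-otic tissue of 0.15 did not pass the test (limma *q* = 0.810), and *Dlx1* and *Dlx2* likewise were called only against periotic tissue. The list was drawn up knowing that such genes mark the OV, and its counts are a description.

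Endothelin signalling induces *Dlx5* and *Dlx6* in the pharyngeal arches. In the list of its genes and of arch targets (18 probes for 13 genes, 12 above background on some array), none was higher in OV in either comparison. *Edn1*, *Ednra* and *Mef2c* were lower than in periotic tissue (3 probes, list median -0.01), and 8 probes were lower than in embryo-minus-otic tissue (list median -0.29). *Mef2c*, a transcription factor upstream of arch Dlx genes, was 2.49-fold lower in OV than in embryo-minus-otic tissue (limma *q* = 7.37e-06), and *Barx1*, a factor of proximal arch mesenchyme, was at least 3.41-fold lower. *Gsc*, a target in the lower arch, was 1.80-fold lower and *Edn1*, the ligand, at least 1.46-fold lower. In periotic against embryo-minus-otic tissue, 7 probes of the list were lower and none higher.

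Dlx and Msx genes are also active in ventral forebrain and limb bud. *Nkx2-1*, a factor of the ventral forebrain, was at least 2.55-fold lower in OV than in embryo-minus-otic tissue and at least 2.58-fold lower in periotic tissue. *Gsx1*, a homeobox gene of forebrain progenitors, was at least 2.07-fold lower in OV than in periotic tissue. Its probe was above background on all 3 periotic tissue arrays but on no embryo-minus-otic array, so it gave no measured level in that group. Of the limb bud list (19 probes for 12 genes), *Fgf8* was higher (at least 1.28-fold) and *Sp8* lower in OV against periotic tissue (list median 0.04). That is 1 of 19 each way, near the 5.07% of all probes called higher and 5.15% called lower. Against embryo-minus-otic tissue *Fgf8*, *Hand2*, *Hoxd12* and *Lhx9* were lower (list median -0.16, with 5.51% of all probes called lower). Periotic against embryo-minus-otic tissue gave 1 limb bud probe higher and 4 lower. What forebrain and limb contribute to the embryo-minus-otic level of *Dlx1* and *Dlx2* was not tested.

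Among other NK-like homeobox genes, the wider class that the members belong to (40 probes for 32 of 36 genes, 22 above background on some array), *Tlx2* was higher in OV and 9 probes were lower against periotic tissue, with a median of 0.02. Against embryo-minus-otic tissue none was higher and 16 were lower, with a median of -0.13. The largest drops were those of *Dbx1* (at least 16.3-fold) and *Nkx6-1* (at least 9.16-fold), progenitor factors of the neural tube, against periotic tissue, and *Nkx2-2* was at least 3.30-fold lower. *En2*, a factor of midbrain and hindbrain, was 10.7-fold lower in OV than in embryo-minus-otic tissue, with only 1 of the 3 OV arrays above background. Between periotic and embryo-minus-otic tissue, 7 probes of the list were higher and 10 lower.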

How the data were processed

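RNA from 9 pools was hybridized to 1-colour MouseRef-8 v2.0 arrays. The authors deposited, per probe and array, an average signal as an intensity that was not normalized between arrays. A detection p-value was deposited beside it. Whether background had been subtracted is not given in the sources used here.

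Signals were floored at 1, which changed 0 values, log2 transformed and quantile normalized over 9 arrays. A linear model of 3 group means was fitted to all 25697 probes (lmFit and eBayes of limma 3.58.1, R 4.3.3), with Benjamini-Hochberg adjustment. The same steps were tested on simulated data. Probes were not averaged by gene. A probe above background on no array of a group was given a bound: the brighter mean over the mean of, per array, the higher of its own value and the lowest value above background. A *q*-value beside a bound is that of the fitted difference, and the bound itself was not tested. Signal over background and 3 arrays per group limit the precision.

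The members and lists were chosen with earlier results of these data known. Of 141 list genes, 117 matched by symbol, 17 by synonym and 7 by neither. All member probes are named. Also named are the 3 probes nearest to the brightest probe of each family and up to 4 genes per list, those with the largest difference among genes called in an OV comparison. Other genes were named after their values were seen. Some results of the ventral forebrain list are not reported here. A planned comparison of homeodomain sequences was not run, as no protein table was used here. Promoter windows are those of a RefSeq table. Alternatives were neqc (offset 16), median or no normalization, a background filter, 2-group fits, a replicate block, an intensity trend, array weights, a test against a 1.5-fold change, each array left out in turn, a detection threshold of 0.05 and Pearson correlation.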

Additional observations from a re-analysis of the deposited data

How the results depend on the processing

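The 18 alternative settings left 271 of 306 recomputed member differences with their direction and their side of the threshold. Another 28 lost the call and 7, all of differences that were not called, changed sign. The calls of *Dlx3* and *Dlx5* in OV against periotic tissue held under all 18. The other calls were lost in the test against a 1.5-fold change, with single arrays left out, with median scaling, without normalization or with an intensity trend. The cause was not tested.

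Scaling arrays to a common median left 1 member probe lower in OV against periotic tissue, 0 lower against embryo-minus-otic tissue and 0 higher in periotic than in embryo-minus-otic tissue, and turned the *Dlx2* difference between OV and embryo-minus-otic tissue to 0.057. Without normalization, 1 was lower and 1 higher in OV, against periotic and embryo-minus-otic tissue respectively, and 0 were higher in periotic than in embryo-minus-otic tissue. An intensity trend also left 0 there. Tested against a 1.5-fold change, 2 were higher and 0 lower in OV against periotic tissue, and 0 were called in either direction in the other comparisons. With single arrays left out, the probes higher in OV than in embryo-minus-otic tissue numbered 1 to 2 and those higher in periotic than in embryo-minus-otic tissue 0 to 1. *Dlx2* ranged from -0.18 to 0.047 for OV against embryo-minus-otic tissue, and *Msx1* from -0.18 to 0.32 for periotic against embryo-minus-otic tissue. By Pearson correlation, 0 of 3 nearest probes of *Dlx2*, 0 of *Msx1* and 1 of *Hmx3* were the ones given.

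Over all probes, OV against periotic tissue gave 1302 higher and 1323 lower, but 814 and 870 with median scaling, 620 and 761 without normalization and 264 and 252 against a 1.5-fold change. OV against embryo-minus-otic tissue gave 1513 and 1417, but 1472 and 670, 588 and 795, and 220 and 279. Periotic against embryo-minus-otic tissue gave 736 and 757, but 812 and 315, 325 and 371, and 61 and 127, with 482 higher without periotic tissue replicate 2.

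Array numbers were not treated as pairing, since the labels do not say whether they mark litters. Deviations of same-numbered arrays correlated at 0.0108 to 0.234, over 0.1 in 5 of 9 pairs. Those of differently numbered arrays correlated at -0.192 to 0.0637, over 0.1 in 0 of 18 pairs. Of the 9 arrays, 6 were closest to their own number in both other groups, so a pairing by number is not excluded. With the replicate number as a block, the member counts were 4 higher and 2 lower, 2 and 1, and 1 and 3 in the 3 comparisons, and no member call changed.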

Other observations

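*Msx3*, the member of the Msx family known from the dorsal neural tube, was examined after its values were seen. It was above background on no OV array, with a mean of 5.70 ± 0.045. It read 7.82, 7.82 and 8.08 in periotic tissue and 6.66, 6.57 and 6.57 in embryo-minus-otic tissue, so no groups overlapped. OV was at least 3.26-fold below periotic tissue (limma *q* = 1.64e-10) and at least 1.32-fold below embryo-minus-otic tissue (limma *q* = 4.46e-06). Both *q*-values are those of the fitted differences, not of the bounds. Periotic tissue was 2.47-fold above embryo-minus-otic tissue (limma *q* = 1.80e-07). The 3 Msx genes were thus all lower in OV than in periotic tissue. The order of the non-otic groups was that of *Msx2*. Both probes of *Hmx1* were above background on no array. The probe of *Dlx1as*, the antisense partner of *Dlx1*, was above background on 1 embryo-minus-otic array and no other.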
